A study of Mus musculus with 108 samples.

Results

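Microglia sorted from brains with small-stage metastases were compared with microglia of tumour-free brains. The comparison rests on 9 of the 108 libraries of the series, chosen by title, cell type and tumour stage: 5 of small-stage microglia and 4 of control microglia. Another 6 tumour-free libraries, whose titles carry 5x2, were kept out of both groups. The 5 small-stage libraries came from athymic nude mice on the Balb/C background (strain CAnN.Cg-Foxn1nu/Crl) carrying brain metastases of a lung tumour, at the stage the labels call small, without whole-brain radiotherapy. The 4 control libraries came from brains of the same strain without tumour and without radiotherapy. Mice without a functional Foxn1 gene form no thymus and lack most T cells, so neither group shows how microglia respond to tumours in the presence of those cells. The labels give no ages or tumour cell line, do not say how many animals went into a library, and do not define the small stage. Whether each library is a separate animal is not stated either, and the p-values therefore reflect the variation among these libraries, some of which may be technical.

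Microglia are the macrophages that live in the brain from early development and renew themselves there. In the healthy brain they carry a homeostatic programme, maintained by CSF1 receptor and TGF-beta signalling and by transcription factors such as Sall1. Around injury, plaques or tumours they are known to take up a reactive state in which lipid-handling, lysosomal, interferon-induced and inflammatory genes are raised. Levels are given as CPM, counts relative to the size of the library, with library sizes corrected for differences in composition by the TMM method. Differences are log2 fold changes ± SE of small-stage against tumour-free microglia (5 against 4 libraries). They were tested with edgeR's quasi-likelihood test, and the Benjamini-Hochberg adjustment covered all genes tested. A gene is said to have risen or fallen when its adjusted p was below 0.05.

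Library quality differed within both groups and bears on every result. Total counts were 5943506, 5145813, 985423 and 18642747 in tumour-free libraries 1 to 4 and between 7589554 and 14267509 in the small-stage libraries. Olfactory and vomeronasal receptor genes, which microglia are not known to express, together held 46.3, 1349, 9123 and 45.1 CPM of the unscaled library total in tumour-free libraries 1 to 4, and 618, 21.5, 33.8, 1299 and 21 CPM in small-stage libraries 1 to 5. Tumour-free libraries 2 and 3 and small-stage libraries 1 and 4 thus stood apart, and the 5 large-stage libraries lay between 20.7 and 31.2. Tumour-free library 3 had no count for 62 of the 4532 genes whose average over all microglia libraries was at least 50 CPM, against 6 or fewer in the 8 other libraries. Results are therefore given with and without tumour-free libraries 2 and 3 and, as a check chosen after seeing the data, also without small-stage libraries 1 and 4.

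**Figure D1:**
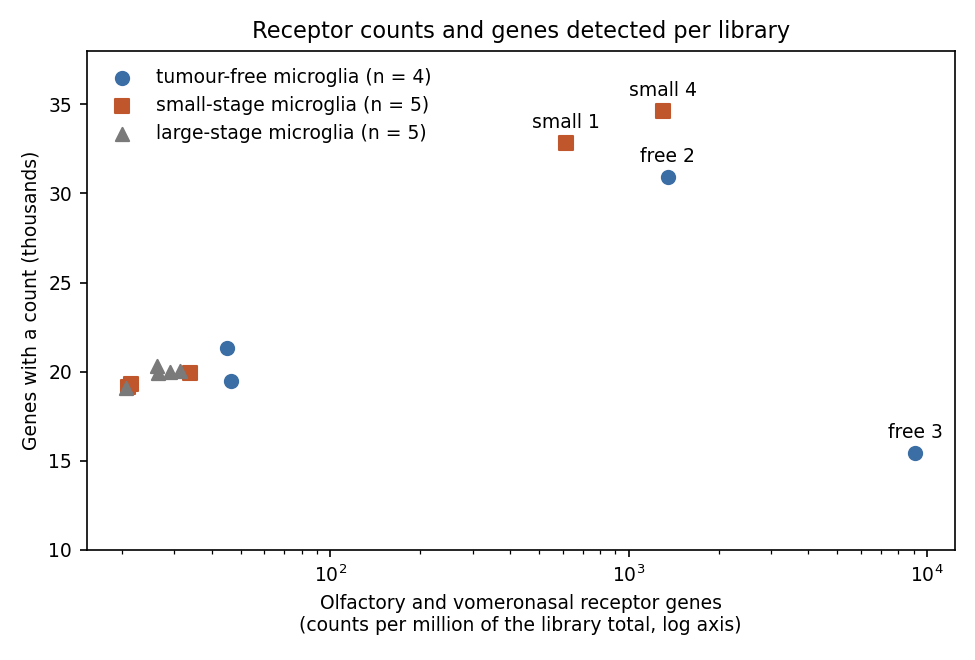
Counts of olfactory and vomeronasal receptor genes (CPM of the unscaled library total, log axis) against the number of genes with at least 1 count, for each tumour-free, small-stage and large-stage microglia library (1 point per library). Tumour-free libraries 2 and 3 (1349 and 9123) and small-stage libraries 1 and 4 (618 and 1299) lie apart from the rest.

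Of 19754 genes tested, 1491 rose (7.55%) and 1544 fell (7.82%), 15.4% in all. These shares are the background against which the gene groups below are read. All 5 small-stage libraries lay above all 4 tumour-free libraries in 1146 genes (5.8%) and below them in 433 (2.19%). The rises rested on the tumour-free libraries of low quality less than the falls did. Without tumour-free libraries 2 and 3, 914 genes rose (4.55%) and 918 fell (4.57%) of 20068, 9.13% in all. Of the 1491 rises, 678 were called again (45.5%) and none changed sign, while of the 1544 falls 442 were called again (28.6%) and 268 changed sign. Leaving out tumour-free library 3 alone left 1015 falls, and leaving out small-stage library 5 alone left 944. In 1358 of the 1544 falls the highest tumour-free value was that of library 2 or 3. The share over all genes was not taken, so this count cannot be weighed against it. Without small-stage libraries 1 and 4 as well, 702 of 17514 genes rose (4.01%) and 625 fell (3.57%), 7.58% in all. The median log2 fold change of all genes was -0.03 with TMM and -0.21 with RLE scaling, the method of DESeq2, which called 1199 higher and 2333 lower.

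**Figure D2:**
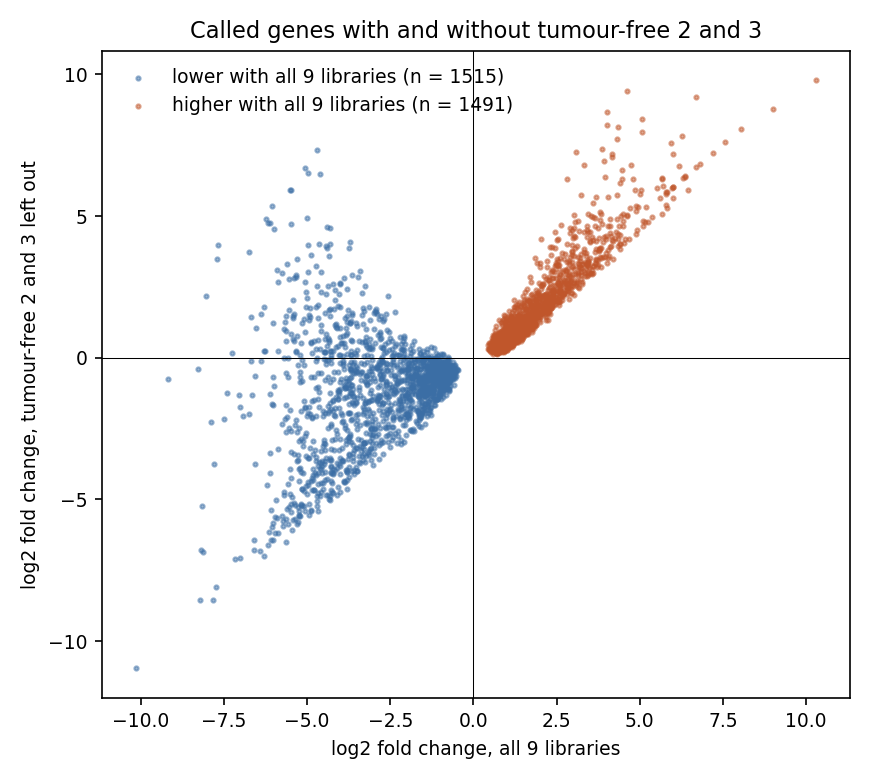
Log2 fold change of each gene called with all 9 libraries (horizontal axis) against its value with tumour-free libraries 2 and 3 left out (vertical axis), 1 point per gene, for 1491 genes that rose and the 1515 that fell and could be tested in both. Risen genes stay above 0, whereas 268 of the fallen genes cross it.

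The libraries of both groups carried the transcripts that define microglia. Summed over 32 homeostatic surface and secreted genes, levels were 53180, 33510, 40290 and 61040 CPM in tumour-free libraries and 39190, 54050, 41740, 32280 and 44670 CPM in small-stage libraries, against 10470 to 20630 CPM in the 5 libraries of bone marrow-derived macrophages (BMDM) sorted from small-stage tumours, which were scaled in a separate fit. Itga4, the integrin subunit by which blood-derived macrophages are told from microglia, was at 2.81, 6.49, 37.7 and 3.36 CPM in tumour-free libraries 1 to 4 and at 4.46, 4.83, 16.2, 16.7 and 9.83 CPM in small-stage libraries 1 to 5 (-0.13 ± 0.62, adjusted p = 0.929). The groups overlapped, with the highest value in tumour-free library 3. Tumour-free libraries 1 and 4 lay below every small-stage library, and without 2 and 3 the difference was 1.72 ± 0.66 (adjusted p = 0.103). Ccr2, the monocyte chemokine receptor, had an adjusted p of 0.971 and ranged from 4.2 to 36.9 CPM and from 7.5 to 30.1 CPM. Of 20 tested monocyte and blood-derived macrophage markers 3 rose and none fell, namely Nr4a1, the integrin gene Itgal and the lysozyme gene Lyz1, and 5 rose without tumour-free libraries 2 and 3, with a median that went from 0.32 to 1.99. Itgal was at 16.7, 10.7, 29.7, 28.2 and 19.6 against 2.53, 5.94, 11.2 and 1.43 CPM (2.20 ± 0.59, adjusted p = 0.0114). Lyz1 was at 0.506, 0.306, 0.966, 1.96 and 2.39 CPM in small-stage libraries and had no count in any tumour-free library (adjusted p = 0.00262). The sum of this marker list was 155.6 to 582 CPM in tumour-free and 907 to 1791 CPM in small-stage libraries, and Nr4a1, an immediate early gene also used as a marker of patrolling monocytes, made up most of it in the small-stage libraries. Without Nr4a1 the sum was 90.2, 185.7, 467 and 49.1 CPM in the 4 tumour-free and 192, 98.8, 421.5, 600.1 and 559 CPM in the 5 small-stage libraries. The groups overlapped through tumour-free libraries 2 and 3, and libraries 1 and 4 lay below every small-stage library. The defining granulocyte and epithelial genes S100a8 and Epcam were at no more than 8.63 and 5.27 CPM in small-stage libraries and reached 114 and 9.63 CPM in tumour-free library 3. The granulocyte list summed to 781, 518, 976 and 884 CPM in tumour-free and 1103, 1478, 942, 936 and 1082 CPM in small-stage libraries. The epithelial list summed to 3.51, 38, 19.3 and 0.84 CPM and to 6.28, 1.92, 13.6, 14.8 and 4.69 CPM. Of 13 tested granulocyte genes 1 rose and 1 fell, and of 9 epithelial genes 2 fell. Without tumour-free libraries 2 and 3 the medians went from -2.69 and -1.69 to 2.24 and 3.78. No granulocyte gene was then called, and 1 epithelial gene was lower and none higher. The epithelial sums of tumour-free libraries 1 and 4 were only 3.51 and 0.84 CPM, so that median rests on few counts. The granulocyte sums differed by less than the median of their list. Markers of border macrophages, which line vessels and meninges, summed to 282, 306, 267 and 272 CPM in tumour-free libraries and to 262, 289, 330.1, 1178 and 709 CPM in small-stage libraries 1 to 5, so libraries 4 and 5 stood out. Their defining gene Mrc1 was at 10.4, 7.87, 3.21 and 17.9 and 11.7, 5.67, 26, 180.0 and 42.1 CPM in the same order (2.31 ± 0.82, adjusted p = 0.0521). What part other cells have in the results was not tested, and in bulk libraries fewer cells of a type and less transcript per cell cannot be told apart.

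Of the 20 rises named for their size, the largest were in Cxcl13 and Spp1. Spp1, the osteopontin gene (ENSMUSG00000029304, GRCm38 chromosome 5, 104435118 to 104441050), was at 1751, 617, 5095, 5653 and 4346 CPM in small-stage libraries 1 to 5 and at 61.8, 36.2, 4.01 and 51.3 CPM in tumour-free libraries 1 to 4. The groups did not overlap, although small-stage library 2 was well below the rest of its group. The log2 fold change was 6.46 ± 0.68 (adjusted p = 1.64e-07) and 5.92 ± 0.84 without tumour-free libraries 2 and 3 (adjusted p = 5.19e-05). The chemokine gene Cxcl13 (chromosome 5, 95956951 to 95961068), whose product draws B cells, was at 1477, 42.7, 1377, 205 and 1639 CPM against 2.25, 0.138, 0 and 0.346 CPM. Within the small stage its level spread from 42.7 to 1639 CPM, with libraries 2 and 4 low and 1, 3 and 5 high. The other 18 were Gbp6, C3, Il12b, Cd40, Cst7, Tmem8, Rab7b, Gpx3, Ch25h, C4b, Nr4a3, Cd72, Iigp1, Ifi207, H2-Q5, Nr4a2, Ccl7 and Ccl5, with log2 fold changes from 4.94 to 6.26. In a limma voom fit with sample quality weights Cxcl13 lost its call (adjusted p = 0.337). So did Tmem8, Ch25h, Gpx3, Nr4a2, Iigp1, Cd72, Rab7b and Nr4a3 (adjusted p = 0.0607 to 0.554). Nr4a2 was also lost in edgeR with the compared libraries alone (adjusted p = 0.0867). Rab7b, a small GTPase of late endosomes, stood at 12.4 to 132 CPM against 1.04 to 1.83 CPM. Cd72, an inhibitory lectin known from B cells, reached 523 CPM in small-stage library 3 and was at 23.4 CPM in library 2, against 1.28 to 7.23 CPM in tumour-free microglia. Tmem8 was carried by small-stage libraries 3, 4 and 5 (67.1, 420.4 and 123 CPM), with 6.58 and 6.67 CPM in libraries 1 and 2, and its adjusted p rose from 0.00389 to 0.0499 without tumour-free libraries 2 and 3 and to 0.0792 without small-stage libraries 1 and 4 as well. The other 19 kept their calls without small-stage libraries 1 and 4 as well. To be named, all 20 had to be called without tumour-free libraries 2 and 3 and to show no overlap. Those traits were therefore set by the choice.

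**Figure D3:**
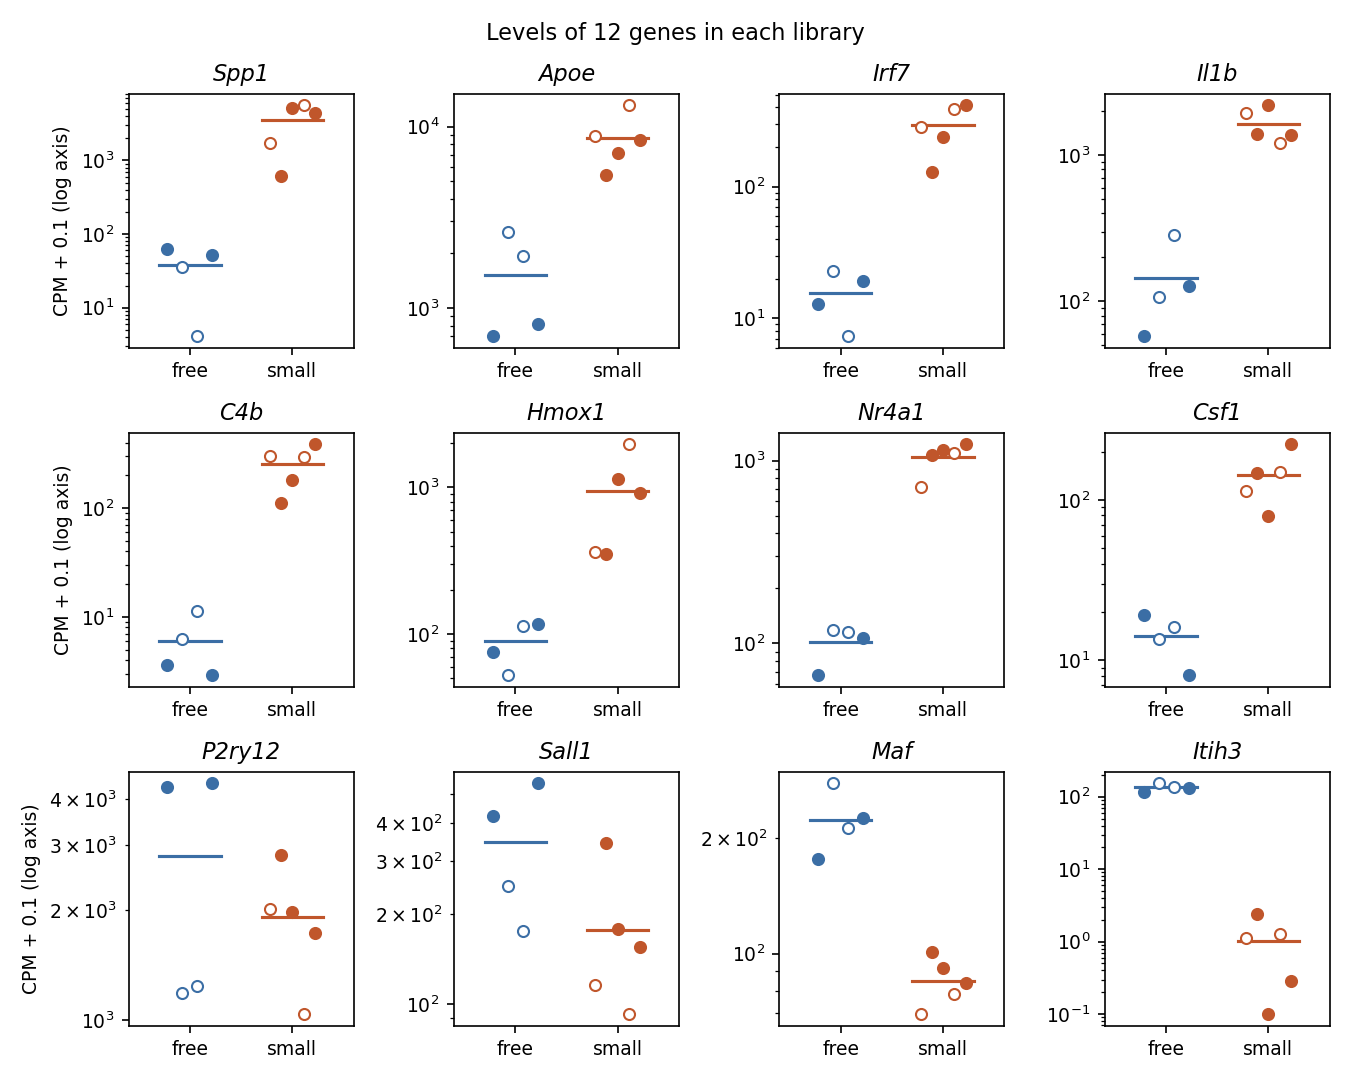
Level of 12 genes in each library (CPM plus 0.1, log axis), tumour-free microglia in blue (n = 4) and small-stage microglia in orange (n = 5), 1 point per library and a line at the group mean. Hollow points mark tumour-free libraries 2 and 3 and small-stage libraries 1 and 4. Spp1, Apoe, Irf7, Il1b, C4b, Hmox1, Nr4a1 and Csf1 lie higher in every small-stage library, Maf and Itih3 lower, and P2ry12 and Sall1 overlap.

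Genes of disease-associated microglia, a state known from cells around amyloid plaques, rose in 23 of 29 tested cases and none fell. Their median log2 fold change was 1.81, and 21 rose without tumour-free libraries 2 and 3. Apoe, which encodes the main lipid carrier of the brain, was at 8854, 5424, 7187, 13140 and 8470 CPM in small-stage and 699.5, 2637, 1934 and 811 CPM in tumour-free libraries (2.50 ± 0.31, adjusted p = 2.44e-06). No values overlapped, and tumour-free libraries 2 and 3 lay above 1 and 4, so that the log2 difference was 3.48 ± 0.35 without them. The lysosomal protease gene Ctsb was at 6085, 5503, 5629, 6923 and 7474 against 1837, 1595, 1506 and 2139 CPM, with little spread in either group (1.84 ± 0.15, adjusted p = 3.02e-09). Cst7, an inhibitor of such proteases, rose from 5.37 ± 3.65 to 328 ± 143 CPM (mean ± SD). Axl, a receptor kinase that binds apoptotic cells, was at 703 to 1125 CPM against 30.6 to 105 CPM, and Gas6, which encodes its ligand, was at 295, 365, 463, 773 and 668 against 138, 107, 70.7 and 166 CPM (2.08 ± 0.33, adjusted p = 5.34e-05). Lpl, a lipase that frees fatty acids from lipoproteins, was at 38.1 to 277 against 0.803 to 16.9 CPM, and Itgax, which encodes CD11c, at 78.1 to 141 against 8.03 to 13.3 CPM. Trem2, the lipid receptor through which this state is known to be induced, and its adaptor Tyrobp did not pass the test, with log2 differences of 0.00 ± 0.20 and 0.30 ± 0.19 (adjusted p = 0.998 and 0.292).

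Interferon-stimulated genes rose in 33 of 42 tested cases and none fell, with a median of 2.30. The same number, 33 of 42, rose without tumour-free libraries 2 and 3, and 31 without small-stage libraries 1 and 4 as well. Irf7, the transcription factor that amplifies type I interferon production, was at 285, 129, 238, 389 and 417 CPM in small-stage and 12.6, 22.9, 7.23 and 19 CPM in tumour-free libraries (4.18 ± 0.45, adjusted p = 2.14e-07). The groups lay far apart, without overlap. Ifi207, a DNA sensor family member, was at 129, 43.2, 132, 258 and 114 against 3.93, 5.11, 2.41 and 2.87 CPM (5.18 ± 0.42, adjusted p = 3.02e-09). Oas2, which encodes an enzyme that activates RNA decay on sensing double-stranded RNA, was at 96.4, 22.3, 89.9, 179 and 104 against 3.51, 1.66, 4.82 and 6.72 CPM. In Ifi207, Irf7, Oas2 and Isg15 alike, small-stage library 2 held the lowest value of its group. Isg15, a ubiquitin-like modifier, was at 78.7, 29.2, 75.5, 87.8 and 69.4 against 8.15, 11.3, 15.3 and 4.64 CPM, and Usp18, which removes it and dampens the receptor, rose by 2.53 ± 0.40.

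Of the ligands, receptors and signal carriers of the interferon pathway, 7 of 16 tested rose and none fell. Without tumour-free libraries 2 and 3, 3 rose and Tmem173, which encodes the DNA-sensing adaptor STING, fell (-0.70 ± 0.22, adjusted p = 0.0406). Ifnb1, which encodes interferon beta, was at 11.7, 3.45, 6.54, 15.6 and 8.09 CPM against 1.54, 0.552, 0 and 0.148 CPM (3.83 ± 1.17, adjusted p = 0.0251). The groups did not overlap, but the level was low and the call was lost without tumour-free libraries 2 and 3 (adjusted p = 0.151), as it was without tumour-free library 2, 3 or 4 alone (adjusted p = 0.0564, 0.0560 and 0.0602). Ifng, Ifna2, Ifna4 and Ifnl2 were too low to be tested. The receptor subunit genes Ifnar1 and Ifngr2 rose by 1.03 ± 0.21 and 0.53 ± 0.15, and both lost the call without those libraries (adjusted p = 0.0546 and 0.228), Ifngr2 also without tumour-free library 2 or small-stage library 2 alone (adjusted p = 0.0543 and 0.0514). Stat2 and Irf9, subunits of the transcription factor complex below the type I receptor, had log2 differences of 0.74 ± 0.34 and 0.50 ± 0.37 (adjusted p = 0.143 and 0.383). Stat2 stood at 204 CPM in tumour-free library 3, with 51 CPM as the next value of its group.

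Guanylate-binding proteins and immunity-related GTPases, which attack vacuoles of intracellular pathogens, rose in 10 of 15 tested cases with a median of 2.27. Without tumour-free libraries 2 and 3, 8 rose and Irgm2 fell (-1.15 ± 0.32, adjusted p = 0.0219). Gbp2 was at 57.6, 42.3, 65.7, 49 and 63.2 against 11.1, 6.21, 2.41 and 8.94 CPM (2.85 ± 0.43, adjusted p = 3.64e-05), a narrow spread in the small stage. Iigp1 was at 32, 15.3, 56.1, 40.4 and 21.8 against 1.12, 0.414, 0 and 0.988 CPM, and Tgtp2 at 8.89 to 17.9 against 0 to 0.828 CPM. Tgtp1 and Tgtp2, like several members of the Gbp, Ifi200 and H2-Q families, have near-identical copies, so reads may have been split between them.

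The promoters of interferon-stimulated genes are known to carry the interferon-stimulated response element, searched here as GAAA, any 2 bases and GAAA on both strands, from 250 bases before to 50 after the start in RefSeq (GRCm38.p6). Of the 42 listed genes 30 were matched, and 19 held the letters (63.3%), against 3.99% of the 27025 genes of that table. Of the 22 matched genes that rose, 13 held them. Of 18 listed GTPase genes 10 were matched and 9 held them. The kappaB letters GGGA, any 2 bases and TTCC, known to be bound by NF-kB, were held by 2 of 34 matched inflammatory genes (5.9%) against 1.63% of all, and, in lists added to the search later, by none of 8 CC and 4 of 9 CXC and CX3C chemokine genes. A match is only a match of letters, and no binding was measured. The windows below are those of the 3 interferon-stimulated genes and the 1 inflammatory gene that rose, held the letters and had the smallest adjusted p, with the match in capitals and its first base counted from the start site.
Ifi207 (chr1:173741760-173742059, minus strand, match at -41): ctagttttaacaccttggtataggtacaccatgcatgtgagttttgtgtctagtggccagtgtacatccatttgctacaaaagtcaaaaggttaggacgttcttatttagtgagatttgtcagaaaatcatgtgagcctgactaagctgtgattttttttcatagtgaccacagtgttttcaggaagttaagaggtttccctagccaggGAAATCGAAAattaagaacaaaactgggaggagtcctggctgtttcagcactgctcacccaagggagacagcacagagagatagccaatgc
Cxcl10 (chr5:92348840-92349139, minus strand, match at -213): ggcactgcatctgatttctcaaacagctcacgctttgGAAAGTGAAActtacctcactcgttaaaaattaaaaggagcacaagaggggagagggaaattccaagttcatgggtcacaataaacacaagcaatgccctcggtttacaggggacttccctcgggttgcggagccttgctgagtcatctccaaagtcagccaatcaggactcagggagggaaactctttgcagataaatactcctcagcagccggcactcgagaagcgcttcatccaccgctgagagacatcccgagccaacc
Slfn5 (chr11:82951852-82952151, plus strand, match at -155): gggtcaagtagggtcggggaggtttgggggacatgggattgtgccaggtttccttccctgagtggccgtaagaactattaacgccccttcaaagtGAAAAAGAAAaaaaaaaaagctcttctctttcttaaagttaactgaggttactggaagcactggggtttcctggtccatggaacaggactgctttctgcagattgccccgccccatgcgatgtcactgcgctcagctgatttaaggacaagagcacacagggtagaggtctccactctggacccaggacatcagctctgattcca
Nfkbia (chr12:55492598-55492897, minus strand, match at -29): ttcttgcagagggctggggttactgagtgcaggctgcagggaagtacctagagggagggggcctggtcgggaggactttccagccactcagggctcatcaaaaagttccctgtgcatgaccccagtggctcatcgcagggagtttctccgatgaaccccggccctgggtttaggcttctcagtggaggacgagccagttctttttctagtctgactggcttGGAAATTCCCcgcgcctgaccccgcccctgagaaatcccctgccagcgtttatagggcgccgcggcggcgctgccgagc
Cxcl10, a chemokine for activated lymphocytes, was at 67.8, 46.8, 113, 78.3 and 49.8 CPM in small-stage and 5.48, 3.45, 0.803 and 6.32 CPM in tumour-free libraries, without overlap (3.97 ± 0.51, adjusted p = 3.94e-06). Slfn5, a member of the schlafen family, was at 100.4, 40.3, 109, 77.7 and 58.4 against 4.35, 4.28, 2.41 and 6.37 CPM. Nfkbia, the inhibitor that NF-kB itself induces, was at 1585, 1292, 1577, 1561 and 1331 against 527, 1044, 1288 and 629 CPM (0.75 ± 0.26, adjusted p = 0.0447), a smaller rise from a high level that was lost when any of 6 libraries was left out (adjusted p = 0.0615 without small-stage library 5 to 0.121 without tumour-free library 1).

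Inflammatory cytokine and NF-kB response genes rose in 25 of 42 tested cases and fell in 2, with a median of 1.90, and 25 rose and 1 fell without tumour-free libraries 2 and 3. Il1b, the pyrogenic cytokine of the inflammasome, was at 1939, 1390, 2208, 1206 and 1384 CPM in small-stage libraries and 57.7, 107, 284 and 127 CPM in tumour-free libraries (3.52 ± 0.45, adjusted p = 3.72e-06). Tnf was at 775, 486, 1474, 613 and 578 against 75.3, 66.4, 17.7 and 121 CPM, with the small-stage maximum in library 3. Neither gene overlapped between the groups. Bcl3, a nuclear partner of NF-kB p50 and p52, had the smallest adjusted p of the list and was at 49, 66.1, 45.7, 53.6 and 58.1 against 7.72, 3.31, 8.03 and 2.87 CPM (3.43 ± 0.32, adjusted p = 2.43e-08). Nfkb2 and Relb, which form the non-canonical NF-kB dimer, rose by 2.31 ± 0.35 and 1.23 ± 0.30, and Relb reached 93.9 CPM in tumour-free library 3, inside the small-stage range. Il12b, the subunit shared by interleukins 12 and 23, was at 37.4, 43.8, 34.2, 24.7 and 10.5 against 0.281, 1.24, 0 and 0.148 CPM. Ptgs2, which encodes the inducible cyclooxygenase of prostaglandin synthesis, was at 68.7, 89.4, 495, 126 and 109.5 against 5.06, 5.38, 24.9 and 13.7 CPM, with small-stage library 3 far above the others. Il6, Nos2 and Il23a, well-known products of stimulated macrophages, did not pass the test, and Il12a was too low to be tested. Antagonists and feedback inhibitors rose as well: Il1rn, which blocks the interleukin 1 receptor, was at 50.3 to 151 against 0.741 to 22.5 CPM, and Tnfaip3, an NF-kB inhibitor, at 1045 to 1571 against 130.2 to 359.7 CPM. Il10 had no count in any tumour-free library and was at 1.42, 0.23, 4.31, 3.01 and 1.47 CPM in small-stage libraries.

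Chemokine ligands rose in 8 of 12 tested CC and 6 of 12 tested CXC and CX3C genes, and none fell. Both lists had 6 rises without tumour-free libraries 2 and 3. Cxcl16, a transmembrane ligand of CXCR6, was the most even of them at 358, 299, 428, 376 and 364 CPM against 75, 62.5, 33.7 and 66.2 CPM (2.60 ± 0.22, adjusted p = 3.27e-09). Ccl2, which draws CCR2-bearing monocytes, was at 246, 155, 435, 381 and 292 against 32.4, 40.5, 2.41 and 39.2 CPM (3.33 ± 0.45, adjusted p = 5.77e-06), and Ccl7 and Ccl12, which act on the same receptor, rose by 5.04 ± 0.72 and 2.33 ± 0.33. The groups did not overlap in any of these 4 genes. Ccl3 and Ccl4, inflammatory chemokines that draw leukocytes, were abundant before any tumour, at 141, 331, 230.4 and 310.1 and 198, 654, 414 and 514 CPM, and rose by 2.25 ± 0.34 and 1.87 ± 0.36. Ccl8 was at 1.92, 0.306, 6.31, 34.7 and 24.4 CPM, high in libraries 4 and 5, the pair with the highest border macrophage sums, and lost its call without tumour-free libraries 2 and 3 (adjusted p = 0.0704). Of 16 tested chemokine receptors, Ccrl2 and Cxcr4 rose and Ccr3 fell, the last not without small-stage library 2 or 3 (adjusted p = 0.0619 and 0.0645). Cx3cr1, the receptor for neuronal fractalkine, was at 2899, 4883, 3095, 2737 and 3399 CPM against 4027, 2541, 1985 and 5988 CPM (-0.10 ± 0.25, adjusted p = 0.856), and the groups overlapped.

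Among 26 immediate early genes, which also respond to tissue digestion before sorting, 11 rose and none fell, and 13 rose without tumour-free libraries 2 and 3. The rises were uneven within the list. Nr4a1, an orphan nuclear receptor, was at 715, 1072, 1146, 1093 and 1231 CPM against 67, 119, 115 and 106 CPM (3.37 ± 0.33, adjusted p = 3.42e-08), and its relatives Nr4a2 and Nr4a3 were at 4.76 to 84.8 and 9.27 to 111 against 0 to 3.17 and 0.141 to 2.41 CPM. Dusp2, a phosphatase of MAP kinases, and the AP-1 subunit Fosl2 rose by 3.15 ± 0.50 and 3.15 ± 0.50. Atf3, Ier3, Rgs1, Dusp1 and Btg2 rose by 1.65, 1.62, 1.41, 1.23 and 0.61 (adjusted p = 0.000853 to 0.0467). The median of the list was 0.60, and 1.36 without tumour-free libraries 2 and 3. What part digestion has in these values was not tested. Fos, Jun and Egr1 had log2 differences of 0.33 ± 0.27, -0.18 ± 0.30 and 0.42 ± 0.22 (adjusted p = 0.438, 0.749 and 0.194). Fos was at 2276, 5659, 5306, 3065 and 2834 CPM in small-stage and 1722, 3410, 3388 and 3665 CPM in tumour-free libraries, and the groups overlapped.

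Growth factor and Fc receptors rose in part. Csf1, a ligand of the receptor on which microglia depend, was at 113, 147, 79.6, 149 and 223 CPM against 19.1, 13.5, 16.1 and 8.0 CPM, without overlap (3.35 ± 0.43, adjusted p = 3.27e-06). Its receptor Csf1r was at 6439, 9287, 6899, 7133 and 8480 against 6770, 3512, 2723 and 9063 CPM (0.47 ± 0.24, adjusted p = 0.188), with tumour-free libraries 2 and 3 the lowest of the 9. Of 9 tested genes of the colony-stimulating factor group 6 rose, among them the GM-CSF receptor subunits Csf2ra (1.85 ± 0.34) and Csf2rb (1.73 ± 0.30), and 4 rose without tumour-free libraries 2 and 3. Il34, the other ligand of Csf1r, Csf2 and Csf3 were too low to be tested. Of 19 tested Fc receptors and Siglecs 6 rose with and without tumour-free libraries 2 and 3, and 4 of 18 without small-stage libraries 1 and 4 as well. Siglec1, a sialic acid-binding adhesion receptor also used as a border macrophage marker, was at 68.3, 25.1, 126, 183 and 169 against 5.34, 3.17, 11.2 and 7.46 CPM (4.19 ± 0.67, adjusted p = 6.97e-05), and Fcgr4, an activating IgG receptor, rose by 2.93 ± 0.52.

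Complement genes rose in 13 of 21 tested cases, with a median of 1.11. Without tumour-free libraries 2 and 3, 9 rose and C5ar2, a second receptor for the C5a fragment, fell (-2.72 ± 0.77, adjusted p = 0.0233). C3, the central component, was at 90.3, 44, 50.4, 91.7 and 171 CPM against 0.983, 1.66, 3.21 and 0.692 CPM (6.19 ± 0.60, adjusted p = 3.42e-08). C4b was at 302, 111, 183, 293 and 389 against 3.51, 6.21, 11.2 and 2.82 CPM (5.66 ± 0.56, adjusted p = 4.20e-08), and no values overlapped in either gene. C1qb and C1qc, subunits of the recognition molecule, were abundant in both groups and moved less, by 0.44 ± 0.14 and 0.63 ± 0.15, while C1qa had 0.37 ± 0.14 (adjusted p = 0.0738). The call of C1qb was lost without tumour-free library 3 or 4 or small-stage library 1, 3 or 5 (adjusted p = 0.0543 to 0.0683). Cfb, which encodes factor B of the alternative pathway, had no count in any tumour-free library and was at 2.94, 2.68, 2.9, 1.96 and 4.04 CPM in small-stage libraries. The receptors C3ar1 and C5ar1 rose by 2.15 ± 0.29 and 1.79 ± 0.36.

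Antigen presentation genes are given by class. Of 23 tested MHC class I and immunoproteasome genes 12 rose, and 7 rose without tumour-free libraries 2 and 3. Nlrc5, the transactivator of class I genes, was at 35, 16.3, 32.1, 35.4 and 36.1 CPM against 1.69, 5.52, 0.803 and 5.78 CPM (3.0 ± 0.48, adjusted p = 6.60e-05). H2-D1, a classical class I heavy chain, was at 1066, 985, 669, 942 and 949 against 63.5, 289.9, 304 and 240.5 CPM, while H2-K1 had a log2 difference of -1.89 ± 1.02 (adjusted p = 0.219). None of 11 tested class II genes rose, and H2-DMb1 fell with an adjusted p of 0.0389 that rose to 0.118 without tumour-free library 3 and to between 0.0623 and 0.0756 without any one small-stage library. Cd74, the invariant chain, was at 135, 149, 426, 407 and 568 against 79.1, 103, 154 and 48.3 CPM (1.83 ± 0.71, adjusted p = 0.0775), with libraries 3, 4 and 5 well above libraries 1 and 2, which lay within the tumour-free range. H2-Aa was at no more than 13.7 CPM in any of the 9 libraries. Whether class I and class II genes differed in their response was not tested. Among 22 tested costimulatory and checkpoint genes 7 rose and 1 fell, and 4 rose and 3 fell without tumour-free libraries 2 and 3. Nectin2, an adhesion ligand of the checkpoint receptor TIGIT, was at 109.8, 178, 155, 129 and 142 against 59.1, 35.9, 73.9 and 51.9 CPM (1.38 ± 0.21, adjusted p = 2.95e-05). Cd40 was at 9.12 to 25.8 against 0 to 0.828 CPM, and Cd274, which encodes PD-L1, was at 62.7, 83.6, 91.2, 65.9 and 34.5 against 21.8, 4.97, 34.5 and 28.4 CPM (1.63 ± 0.34, adjusted p = 0.00151). Lag3 was at 107, 65.3, 22.1, 38.1 and 156 against 15.4, 13.8, 8.03 and 9.98 CPM and lost its call without tumour-free libraries 2 and 3 (adjusted p = 0.0615). Vsir, which encodes the checkpoint protein VISTA, fell (-0.58 ± 0.20, adjusted p = 0.0494), and by more without those libraries (-0.96 ± 0.19, adjusted p = 0.0013). Leaving out 1 library at a time ended its call for 7 of the 9 libraries, with -0.27 (adjusted p = 0.312) without tumour-free library 4.

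Receptors for microbial and damage products rose in 8 of 27 tested cases and fell in 1. Tlr2, which senses lipopeptides, was at 1418, 796, 1431, 1443 and 1250 CPM against 184, 94.4, 186 and 257 CPM (2.81 ± 0.28, adjusted p = 6.59e-08). Cd14, its co-receptor, was at 1567, 1530, 1931, 2048 and 2170 against 436, 451, 292 and 465 CPM, and neither gene overlapped between groups. Clec7a, the beta-glucan receptor dectin-1, was at 251, 189.5, 363, 198 and 381 against 38.1, 22.9, 41.8 and 51.1 CPM, and the scavenger receptor gene Msr1 rose by 3.93 ± 0.69. Tlr5, the flagellin receptor, fell (-2.16 ± 0.67), a call lost without tumour-free library 4 (adjusted p = 0.109) or small-stage library 1 or 3 (adjusted p = 0.0508 and 0.065), and without tumour-free libraries 2 and 3 Tlr4 and Tlr6 fell as well (-0.87 ± 0.25 and -0.92 ± 0.25), with 6 genes higher.

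Of 20 tested genes of alternative activation and immunosuppression 7 rose and none fell. Socs3, the feedback inhibitor of cytokine receptors, was at 811, 1665, 828, 1085 and 872 CPM against 343, 270.0, 149 and 342 CPM (1.93 ± 0.33, adjusted p = 0.000164), and Il4ra, a receptor subunit for interleukins 4 and 13, rose by 1.84 ± 0.32. Arg1, the arginase of alternatively activated macrophages, was at 1.42, 0.69, 1.93, 11.9 and 2.57 against 1.83, 3.59, 28.9 and 2.96 CPM (-1.15 ± 1.06, adjusted p = 0.511), and the groups overlapped. Cd163 and Chil3 did not pass, and Retnla was too low to be tested. In the TGF-beta pathway 4 of 26 tested genes rose and 1 fell, and 2 rose and none fell without tumour-free libraries 2 and 3. Itgb8, whose product activates latent TGF-beta and which astrocytes are known to express, was at 3.85, 0.69, 0.0743, 4.18 and 0.0919 against 10.7, 24.3, 23.3 and 14.5 CPM (-3.37 ± 1.00, adjusted p = 0.0205, and 0.0535 without small-stage library 5). Tgfb1 and its receptor gene Tgfbr1 had log2 differences of 0.41 ± 0.44 and -0.26 ± 0.30 (adjusted p = 0.581 and 0.621).

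Genes of efferocytosis, the uptake of dying cells, rose in 5 of 23 tested cases and fell in 4. Axl and Gas6, given above, were among the rises. Mertk, the related receptor of resting microglia, was at 671, 820.5, 601, 618 and 756 CPM against 442, 450.0, 221 and 986 CPM (0.40 ± 0.26, adjusted p = 0.322). Mfge8, a bridging protein between dying cells and integrins, was at 15.6, 33.2, 14.1, 10.5 and 28.9 against 91.4, 289, 52.2 and 65.8 CPM without overlap (-2.61 ± 0.46, adjusted p = 0.000215), and kept its call without tumour-free libraries 2 and 3. Of 33 tested genes of matrix, proteases and angiogenesis 8 rose and 2 fell. Mmp12, the macrophage elastase, was at 56.5, 11.3, 63.2, 88.3 and 30.3 against 2.11, 0.966, 0 and 3.01 CPM (4.69 ± 0.76, adjusted p = 8.35e-05). Plaur, the urokinase receptor, was at 312, 149, 287, 314 and 465 against 16.1, 29, 96.3 and 14.8 CPM, and Vegfa, Mmp9 and Timp1 did not pass. Of 18 tested integrins 7 rose and 1 fell, while 4 rose and none fell without tumour-free libraries 2 and 3, and Itgam, which encodes CD11b, rose by 1.07 ± 0.22.

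Of 42 tested lysosomal genes 30 rose and none fell, with a median log2 fold change of 1.02. In the absence of tumour-free libraries 2 and 3, 15 rose and the median was 0.67. Grn, which encodes the lysosomal protein progranulin, was at 3009, 3658, 4047, 4314 and 4635 CPM against 1481, 1187, 1303 and 1980 CPM (1.40 ± 0.18, adjusted p = 4.76e-06), and the proteases Ctsl and Ctsz rose by 1.81 ± 0.24 and 1.20 ± 0.15. Tfeb, the transcription factor of lysosome formation, did not pass (-0.13 ± 0.35, adjusted p = 0.861). Lipid uptake, storage and efflux genes rose in 14 of 29 tested cases. Abca1, the cholesterol exporter, was at 1028, 795, 763, 843 and 804 against 321, 255, 228 and 362 CPM (1.54 ± 0.18, adjusted p = 9.47e-07). Plin2, the coat protein of lipid droplets, was at 252, 127, 411, 492 and 434 against 59.4, 53.7, 12 and 81.2 CPM, and Soat1, which esterifies cholesterol for storage, rose by 1.42 ± 0.26. Ch25h, which makes 25-hydroxycholesterol, was at 17.4, 6.67, 169, 37.7 and 27.6 against 0.702, 0, 0 and 2.02 CPM, highest in small-stage library 3. Of 23 tested cholesterol synthesis genes 1 rose and 4 fell, against backgrounds of 7.55% and 7.82%. Msmo1, a sterol oxidase, fell (-0.74 ± 0.19) and kept its call without tumour-free libraries 2 and 3 (adjusted p = 0.0111), where it was the only one of the list to fall.

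Antioxidant, iron and stress genes changed in part. Hmox1, the haem-degrading oxygenase, was at 363, 353, 1139, 1976 and 915 CPM against 74.7, 52.3, 114 and 117 CPM (3.41 ± 0.53, adjusted p = 3.93e-05), higher in small-stage libraries 3, 4 and 5 than in 1 and 2. Srxn1 and Txnrd1, which encode enzymes that reduce oxidised peroxiredoxin and thioredoxin, rose by 3.11 ± 0.43 and 2.01 ± 0.29. Nqo1, a quinone reductase, fell (-2.65 ± 0.88, adjusted p = 0.0383), a call lost without tumour-free libraries 2 and 3 (adjusted p = 0.102) and without tumour-free library 2 or small-stage library 1, 2, 3 or 5 alone (adjusted p = 0.075 to 0.131). Gclm and Slc7a11, genes of glutathione supply, did not pass (0.86 ± 0.41 and -0.31 ± 0.68, adjusted p = 0.155 and 0.817). Gpx3, a secreted glutathione peroxidase, was at 24, 17.7, 31.3, 126 and 129 against 0.983, 2.35, 0 and 0.939 CPM. Of the 27 tested genes of this list 9 rose and 2 fell, and 6 rose and none fell without tumour-free libraries 2 and 3. Of 18 tested iron-handling genes 5 rose and 2 fell, and 2 rose without tumour-free libraries 2 and 3. Fth1, the ferritin heavy chain, was at 2358, 1747, 2943, 4379 and 3401 against 938, 1140, 1164 and 829 CPM (1.54 ± 0.23, adjusted p = 2.90e-05). Lcn2, an iron-chelator carrier, was called lower with 98.8 CPM in tumour-free library 3 and 0, 0.414 and 0 CPM in the other 3, and its sign turned without libraries 2 and 3 or without library 3 alone (3.01, adjusted p = 0.265). Of 22 tested endoplasmic reticulum stress genes 12 rose, with 7 without those libraries, among them the chaperone gene Hspa5 (1.29 ± 0.25) and Herpud1, a degradation factor (1.29 ± 0.20). Of 28 tested genes of the Bcl-2 family and cell death 5 rose and 1 fell, and 3 rose and 1 fell without tumour-free libraries 2 and 3. Pmaip1, which encodes the death-promoting protein NOXA, was at 232, 185, 204, 178 and 146 against 21.8, 7.87, 10.4 and 25 CPM (3.49 ± 0.33, adjusted p = 3.16e-08), and Mcl1, the survival protein that NOXA binds, was at 1568, 1057, 697, 1568 and 1589 against 373, 458, 455 and 208 CPM (1.80 ± 0.35, adjusted p = 0.000691). Of 24 tested p53 targets 5 rose, Pmaip1 and Cdkn1a (2.47 ± 0.36) included, and none fell, whereas 3 rose and 1 fell without tumour-free libraries 2 and 3. Of the same list Mdm2, Ccng1 and Phlda3 did not pass.

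Glycolysis and hypoxia genes rose in 15 of 30 tested cases and 1 fell, and respiratory chain genes in 2 of 34. Hif1a, the oxygen-regulated transcription factor, was at 306, 322, 354, 349 and 321 CPM against 154, 56, 84.3 and 174 CPM (1.49 ± 0.26, adjusted p = 0.000236). Pkm, the last enzyme of glycolysis, was at 454, 500.4, 753, 672 and 865 against 175, 183, 117 and 186 CPM (1.97 ± 0.32, adjusted p = 9.09e-05), and the lactate exporter Slc16a3 rose by 1.58 ± 0.32. With tumour-free libraries 2 and 3 left out, 9 of the 30 rose and none of the respiratory chain genes did. Of 37 tested ribosomal protein genes none rose and 1 fell, a call lost without those libraries.

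Genes of cell division rose from low levels. Of 28 tested mitosis genes 19 rose, with a median of 2.55, and 20 rose without tumour-free libraries 2 and 3. Mki67, the proliferation marker, was at 26.4, 26.9, 72.4, 54.4 and 63.2 CPM against 2.67, 10.9, 28.1 and 3.61 CPM (2.31 ± 0.72, adjusted p = 0.0286). Tumour-free library 3, at 28.1 CPM, lay above small-stage libraries 1 and 2, so the groups overlapped. The difference without tumour-free libraries 2 and 3 was 3.91 ± 0.93 (adjusted p = 0.00711). Leaving out tumour-free library 1, 2 or 4 or small-stage library 3 or 5 alone raised the adjusted p to between 0.0535 and 0.0753. Cenpa, a centromeric histone, was at 27.6, 12.4, 29.3, 28.4 and 48.7 against 3.09, 6.63, 0.803 and 4.05 CPM without overlap (2.87 ± 0.49, adjusted p = 0.000136). Of 35 tested DNA replication genes 14 rose, and 6 without tumour-free libraries 2 and 3. No replication-dependent histone gene of 15 tested rose and 2 fell, both calls being lost without those libraries, where 1 gene, Hist1h1c, rose (0.98 ± 0.31, adjusted p = 0.0451).

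Of 32 tested homeostatic surface and secreted genes 4 fell and 1, Gpr84, rose, a share near the background of 15.4% in all. Without tumour-free libraries 2 and 3, 7 fell, against a background of 4.57%, and without small-stage libraries 1 and 4 as well 4 fell, against 3.57%. P2ry12, the ADP receptor of resting microglia (chromosome 3, 59216272 to 59262871), was at 2016, 2816, 1970, 1040 and 1726 CPM in small-stage libraries and 4330, 1187, 1241 and 4427 CPM in tumour-free libraries (-0.55 ± 0.34, adjusted p = 0.286). Tumour-free libraries 1 and 4 lay above every small-stage library, and libraries 2 and 3 within their range. Without libraries 2 and 3 the gene fell (-1.22 ± 0.32, adjusted p = 0.0138), a call lost again without small-stage libraries 1 and 4 (adjusted p = 0.0629). Tmem119 behaved alike in its values, at 1793, 2900, 1916, 1208 and 2263 against 3293, 2026, 1763 and 3273 CPM, and passed in none of these 3 analyses. Gpr34, P2ry13 and Entpd1, whose products bind or degrade extracellular nucleotides or lysolipids, fell without tumour-free libraries 2 and 3 and did not pass with them (-1.21 ± 0.29, -1.25 ± 0.28 and -1.12 ± 0.28). Selplg, which encodes a selectin ligand, fell (-0.87 ± 0.22) and kept its call in all 3 analyses. In a fit of the 9 compared libraries alone, no gene of this list was called lower, Selplg included. Cst3, the gene of the secreted protease inhibitor cystatin C, fell (-0.98 ± 0.23) with 16430 CPM in tumour-free library 3, and did not pass without libraries 2 and 3 (adjusted p = 0.193) or without library 3 alone (adjusted p = 0.0704).

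Transcription factors of microglia and macrophages rose in 16 of 42 tested cases and fell in 3. Maf, a factor of the macrophage resting state, was at 69.4, 101, 91.7, 78.2 and 83.9 CPM against 176, 279, 213 and 226 CPM (-1.40 ± 0.22, adjusted p = 5.36e-05). Every small-stage value was below every tumour-free value, also when libraries 2 and 3 are set aside (-1.27 ± 0.25, adjusted p = 0.00163). Sall1, which sets microglial identity, was at 116, 345, 178, 92.7 and 155 against 422, 247, 176 and 545 CPM (-0.97 ± 0.28, adjusted p = 0.0187). Small-stage libraries 2 and 3 lay inside the tumour-free range, and without tumour-free libraries 2 and 3 the difference was -1.47 ± 0.29 (adjusted p = 0.00139). The call of Sall1 was lost without tumour-free library 4 alone (-0.69, adjusted p = 0.088) or small-stage library 1 alone (adjusted p = 0.0534). Batf3, a partner of AP-1 factors, fell (-1.07 ± 0.29) and lost its call without them (adjusted p = 0.0822) and without tumour-free library 2 alone (adjusted p = 0.0579). Stat3 and Tgif1, a repressor of TGF-beta signalling, rose by 1.76 ± 0.21 and 1.99 ± 0.30, while Spi1, Irf8 and Mef2c, which also define the lineage, had log2 differences of 0.47 ± 0.17, 0.41 ± 0.17 and -0.11 ± 0.19 and did not pass.

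**Figure D4:**
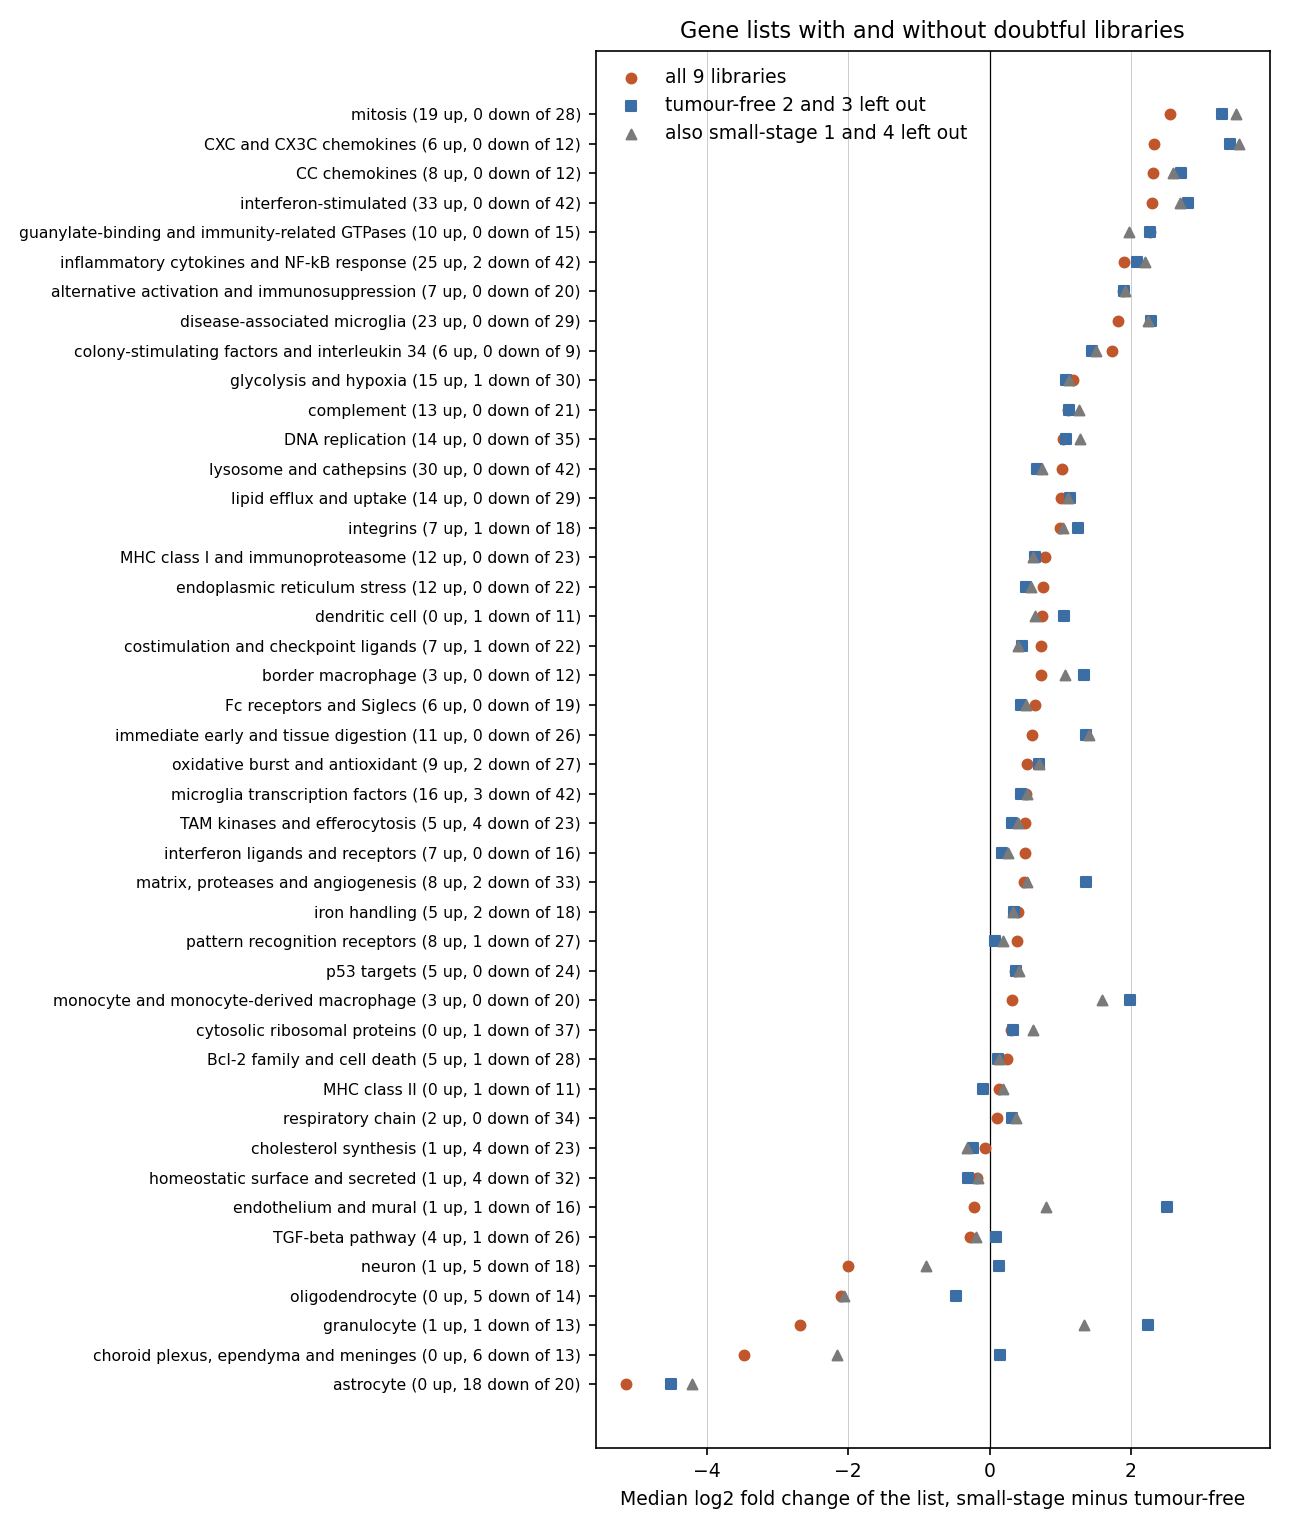
Median log2 fold change (small-stage minus tumour-free) of each gene list shown over its tested members, with all 9 libraries, without tumour-free libraries 2 and 3, and without small-stage libraries 1 and 4 as well. The erythroid, T, NK and B cell, epithelial tumour, replication-dependent histone and chemokine receptor lists are not plotted. The labels give how many members rose and fell with all 9 libraries. Interferon-stimulated, chemokine and disease-associated genes stay on the right and astrocyte genes on the left in all 3. The medians of the choroid plexus, granulocyte, endothelial, neuron, TGF-beta and MHC class II lists change sign without tumour-free libraries 2 and 3.

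Among the 20 largest falls, 8 were in genes of the list of astrocyte markers. They included Npy, Agt, Itih3, Tril, Gpr37l1, Epdr1, Fbxo2, Ntsr2, Slc4a4, Gria1, Timp4, Slc7a10, Gjb6, Cntfr, Scg3, Ednrb, Htra1, Sparcl1 and Ptprz1, with log2 fold changes from -8.20 to -5.56, and 18 of the 20 kept their call without small-stage libraries 1 and 4 as well, with Fbxo2 and Cntfr lost. Itih3, which encodes a hyaluronan-binding protein, was at 117, 154, 137 and 134 CPM in tumour-free libraries and 1.01, 2.3, 0, 1.2 and 0.184 CPM in small-stage libraries (-7.17 ± 1.27, adjusted p = 0.000225). All 4 tumour-free libraries held it at a like level, and leaving out 2 and 3 gave -7.09 ± 1.31. As with the rises, the 20 falls had to be called without those libraries and to show no overlap. Both traits were set by the choice. Sparcl1, an adhesion-modulating protein secreted by astrocytes, was at 292, 750.1, 358 and 486 against 2.84, 30.9, 0.743, 7.46 and 5.88 CPM. Of the 20 tested astrocyte markers 18 fell, 17 without tumour-free libraries 2 and 3 and 13 without small-stage libraries 1 and 4 as well. Gfap, the best-known marker of reactive astrocytes, did not follow, at 25.7, 12, 3.21 and 5.43 CPM in tumour-free and 9.72, 25.2, 3.56, 15.3 and 13.7 CPM in small-stage libraries (0.16 ± 0.77, adjusted p = 0.927).

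Summed over the 20 astrocyte markers, levels were 2248, 4850, 2448 and 2848 CPM in tumour-free libraries 1 to 4 and 294, 576, 165.4, 253 and 254 CPM in small-stage libraries 1 to 5. The 6 tumour-free libraries titled 5x2 lay between 1174 and 7679 CPM and the 5 large-stage libraries between 219.6 and 663 CPM, so that tumour-free libraries as a whole stood above tumour libraries. Of 14 tested oligodendrocyte markers 5 fell, and 3 without tumour-free libraries 2 and 3. Mbp, a myelin protein, was at 231, 230.1, 217 and 206 against 51.9, 53.8, 48.5, 109.7 and 67.1 CPM (-1.74 ± 0.28, adjusted p = 7.46e-05), an even difference. Among the 4 tumour-free libraries compared, choroid plexus and ependymal markers were high in 2 and 3, with sums of 4297 and 2496 CPM against 16.6 and 16.8 CPM in libraries 1 and 4. The 6 tumour-free libraries titled 5x2 also held them, at 481.7 to 18930 CPM, and the small-stage libraries lay between 0.891 and 34.1 CPM. In Ttr, the most abundant of them, libraries 2 and 3 held 2875 and 1632 CPM and libraries 1 and 4 held 3.51 and 3.06 CPM, and none of its list fell without libraries 2 and 3. Neuron markers fell in 5 of 18 tested cases, and in 1 without those libraries. Eno2, a neuronal enolase, rose (1.86 ± 0.58, adjusted p = 0.0269) and lost its call without them (adjusted p = 0.171) and without tumour-free library 3 or small-stage library 3 alone (adjusted p = 0.0676 and 0.0976). What part astrocytes or other cells have in these falls was not tested.

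**Figure D5:**
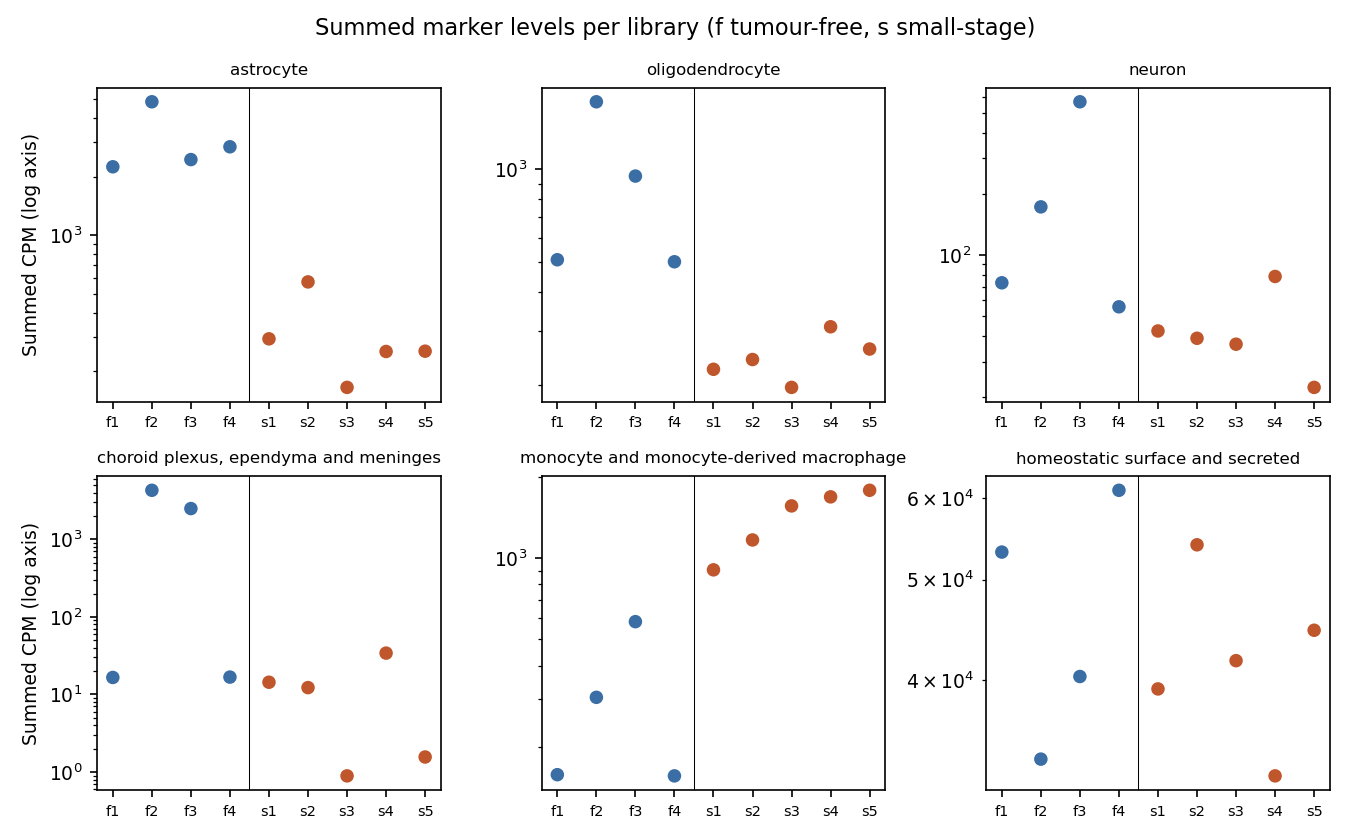
Summed level (CPM, log axis) of the markers of 5 other cell types and of the homeostatic list in each of the 9 libraries (f1 to f4 tumour-free, s1 to s5 small-stage). Astrocyte sums are 2248 to 4850 CPM in tumour-free and 165.4 to 576 CPM in small-stage libraries, and the choroid plexus sums are high in f2 and f3.

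Small-stage microglia were set against large-stage microglia to ask how much of the small-stage state changes later. The contrast is between these groups, but the tumour-free libraries entered the same fit and so its scaling, filter and estimate of the spread. None of 19754 genes passed edgeR's quasi-likelihood test (0%), with 2453 at an unadjusted p below 0.05, and DESeq2's Wald test called 42, all lower at the large stage. Spp1 was at 5393 ± 2120 CPM (mean ± SD) in 5 large-stage libraries against 3492 ± 2195 CPM, a log2 difference of 0.63 ± 0.49 (adjusted p = 0.731). Apoe and Irf7 had 0.40 ± 0.27 and -0.54 ± 0.35 (adjusted p = 0.645 and 0.607). The secreted peroxidase gene Gpx3 was at 258 ± 166 CPM at the large stage against 65.6 ± 56.8 CPM (1.98 ± 0.69, unadjusted p = 0.00754, adjusted p = 0.37), and Ccl8 had 1.96 ± 0.86 (adjusted p = 0.37). Border macrophage markers had a median difference of 1.48. Their sums were 612 to 1813 CPM at the large and 262 to 1178 CPM at the small stage. What part such cells have in Gpx3 and Ccl8 was not tested. The median difference between the stages was 0.25 for disease-associated, -0.38 for interferon-stimulated and -0.56 for mitosis genes. Missing the threshold does not show that the stages are alike, and the SE of Spp1 allows a difference of either sign.

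BMDM sorted from small-stage tumours were compared with small-stage microglia to see how the raised genes stand in tumour macrophages of another origin. Of 13653 genes tested 1557 were higher (11.4%) and 1128 lower (8.26%) in BMDM, 19.7% in all. Among the genes that rose in microglia 1474 were tested here, of which 222 were higher and 134 lower in BMDM. The 27 of 31 tested homeostatic genes lower in BMDM include P2ry12 and Tmem119 (-2.91 ± 0.39 and -2.74 ± 0.41). Of genes raised in small-stage microglia, Csf1 was at 22.5 ± 22.5 CPM in BMDM and 140.0 ± 49.8 CPM in microglia (-2.64 ± 0.56, adjusted p = 0.00568), and Lag3 and C4b were lower in BMDM (-3.76 ± 0.54 and -1.49 ± 0.38). Cd40 and Cybb, the latter a subunit of the phagocyte oxidase, were higher in BMDM by 2.72 ± 0.31 and 2.51 ± 0.41. Spp1, Apoe and Nr4a1 did not pass, with -0.28 ± 0.74, 0.10 ± 0.29 and 0.30 ± 0.19 (adjusted p = 0.83, 0.838 and 0.286). Missing the threshold does not show equal levels. The fit held no tumour-free macrophages, so whether a gene is raised in BMDM was not tested. Of 42 interferon-stimulated genes 8 were higher in BMDM and none lower, and of 28 mitosis genes 1 was higher and 4 lower.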

How the data were processed

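Total RNA was sequenced from FACS-purified cells in 108 libraries. The deposited table gives raw counts per Ensembl gene for each library. Per the submitters' processing notes, the tools named are TopHat2 2.0.14, HTSeq, FastQC and DESeq2 1.18.1, and the genome build is GRCm38. Neither the annotation nor the strand setting is given in the sources used here, so overlapping and antisense genes cannot be told apart.

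Libraries were grouped by title and labels. One edgeR 4.0.16 fit (R 4.3.3) held all 34 microglia libraries, including irradiated groups, which share 1 estimate of the spread. Library sizes were scaled by TMM, genes were kept by filterByExpr (minimum count 10, minimum total 15), and contrasts were tested by quasi-likelihood F test with Benjamini-Hochberg adjustment. SE is the log2 fold change divided by the square root of F. A second fit held the 5 small-stage microglia and 5 BMDM libraries. The counting error of a library falls with its depth, and tumour-free library 3, with 985423 counts, gives the least precise values. The code was tested on simulated data. Alternatives were RLE scaling, no filter, a 10 CPM filter, DESeq2 1.42.0, limma voom (3.58.1), the compared libraries alone, a replicate block and leaving out libraries.

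The comparison and the gene lists were chosen with earlier results of these data known. Genes named are the 20 largest changes each way, list members and a set of cell markers. The largest changes had to be called with all libraries and, in the same direction, without tumour-free libraries 2 and 3. They also needed at least 10 CPM on average in the group with the higher level and no overlap between groups. Gene models were left out. Promoters are from RefSeq (GRCm38.p6). Self-test outcomes are not quoted. Some genes that these rules name are not reported here.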

Additional observations from a re-analysis of the deposited data

Results flagged for a closer look

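In 408 checks of the highest and lowest library of a group against its neighbour, 50 values stood apart by more than Dixon's 95% critical value for groups of 4 (tumour-free) and 5 (small-stage). Where values are normally distributed, about 1 in 20 groups shows such a gap by chance. CPM, above all near 0, need not be so distributed, so the 50 cannot be weighed against that rate. Tumour-free library 3 held 16 of them. Tumour-free library 1 exceeded the rest of its group in Cxcl13 at 2.25 CPM (next 0.346). Tumour-free library 1 fell below the rest of its group in Fos at 1722 CPM (next 3388) and Trem2 at 680.4 CPM (next 1060). Tumour-free library 2 exceeded the rest of its group in Cd40 at 0.828 CPM (next 0.141), Gbp6 at 0.414 CPM (next 0.0494), Htra1 at 173 CPM (next 44.1), Mfge8 at 289 CPM (next 91.4), Nr4a2 at 3.17 CPM (next 0.281), Ntsr2 at 165 CPM (next 51.7), Slc4a4 at 106 CPM (next 66.6) and Timp1 at 0.276 CPM (next 0). Tumour-free library 3 exceeded the rest of its group in Arg1 at 28.9 CPM (next 3.59), Cntfr at 36.9 CPM (next 4.42), Cxcr4 at 2.41 CPM (next 0.741), Cybb at 88.3 CPM (next 23.5), Epcam at 9.63 CPM (next 0.414), Itga4 at 37.7 CPM (next 6.49), Lcn2 at 98.8 CPM (next 0.414), Mmp9 at 34.5 CPM (next 2.11), Nos2 at 31.3 CPM (next 2.62), Relb at 93.9 CPM (next 30.1), S100a8 at 114 CPM (next 5.06) and Stat2 at 204 CPM (next 51). Tumour-free library 3 fell below the rest of its group in Cd14 at 292 CPM (next 436), Itgam at 188 CPM (next 315) and Pkm at 117 CPM (next 175). Tumour-free library 4 exceeded the rest of its group in Mef2c at 924 CPM (next 552). Tumour-free library 4 fell below the rest of its group in C1qb at 2219 CPM (next 2442). Small-stage library 1 exceeded the rest of its group in Dusp2 at 278 CPM (next 148). Small-stage library 2 exceeded the rest of its group in Egr1 at 5763 CPM (next 3226), Gjb6 at 2.45 CPM (next 0.654), Gpr37l1 at 12.5 CPM (next 1.7), Htra1 at 4.83 CPM (next 0.608), Ntsr2 at 4.21 CPM (next 0.506), Scg3 at 2.83 CPM (next 0.81) and Sparcl1 at 30.9 CPM (next 7.46). Small-stage library 2 fell below the rest of its group in Ccl4 at 924 CPM (next 1665) and Nlrc5 at 16.3 CPM (next 32.1). Small-stage library 3 exceeded the rest of its group in Ch25h at 169 CPM (next 37.7), Epcam at 5.27 CPM (next 1.75), Il6 at 46.6 CPM (next 16.4) and Ptgs2 at 495 CPM (next 126). Small-stage library 4 exceeded the rest of its group in Arg1 at 11.9 CPM (next 2.57), Epdr1 at 1.2 CPM (next 0.153), Mrc1 at 180.0 CPM (next 42.1) and Tmem8 at 420.4 CPM (next 123). Small-stage library 5 exceeded the rest of its group in Slc16a3 at 129.6 CPM (next 80.9). Summed over lists, the erythroid markers stood at 40.6 CPM in small-stage library 2 (next 2.48) and the ribosomal protein genes at 6462 CPM in small-stage library 3 (next 2510.0). Olfactory and vomeronasal receptors took 9123 CPM of the library total in tumour-free library 3 (next 1349).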

How the results depend on the processing

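Alternatives that leave out small-stage libraries 1 and 4 were chosen after seeing the data. Of 192 printed genes tested, 142 were called, of which 126 kept the call without tumour-free libraries 2 and 3, 126 without small-stage libraries 1 and 4 as well, 137 with RLE scaling, 140 with DESeq2's Wald test and 62 in every setting run. Limma voom with sample weights kept 110 of the 142, with 31 lost and 1 reversed. The compared libraries alone kept 110 of 140, or 108 of 142 without tumour-free libraries 2 and 3. Without small-stage 1 and 4 too they kept 75 of 141. Sign changes of genes not called with all libraries are not counted. In small-stage against tumour-free microglia, the numbers of higher and lower genes were 914 and 918 without tumour-free libraries 2 and 3, and 702 and 625 without small-stage libraries 1 and 4 as well. With the compared libraries alone they were 328 and 138, or 512 and 314 without tumour-free libraries 2 and 3, or 223 and 187 without small-stage 1 and 4 too. RLE scaling gave 1199 and 2333, DESeq2 gave 1584 and 2954, and limma voom with sample weights gave 633 and 598. Leaving out 1 library at a time gave 1118 to 1976 higher and 944 to 2154 lower genes. Other filters changed no count by over 1.5 times. The replicate block gave 1211 higher and 768 lower genes. Same-numbered deviations from the group mean correlated at -0.311, -0.198, -0.158 and -0.531. Small-stage library 4 correlated at -0.475 and -0.531 with tumour-free libraries 1 and 4, and at 0.298 and 0.37 with 2 and 3. The deviations thus went with library quality as well, and these values cannot tell whether equal numbers pair the libraries. Between the stages no setting of edgeR called a gene, and DESeq2 called 42 lower. BMDM against microglia gave 1027 higher and 581 lower genes without small-stage microglia 1 and 4, and 1706 lower with DESeq2. Lcn2 reversed, without a call, to 6.5 without tumour-free libraries 2 and 3, 6.52 with the compared libraries alone as well, 5.87 without small-stage 1 and 4 too and 3.20 with voom, and ranged from -5.08 to 3.01 when 1 library was left out. The cause of these changes was not tested. Depth limits genes of a few counts, above all in tumour-free library 3.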
